A study of Lobosphaera incisa with 32 samples.

Results

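The transcriptome of the green microalga Lobosphaera incisa after 72 h without nitrogen (N) under normal light was set against that of nutrient-replete cells under the same light. Members were all genes with at least 1 FPKM (sequenced fragments scaled by transcript length and by the size of the library) in either condition, which gave 13789 of the 16722 genes in the tables. The cells of strain SAG 2468 came from axenic, CO2-aerated cultures. The N-deprived cells (Nst72hNL) had been washed, moved to medium with no N source and kept for 72 h at 75 µmol photons per square metre per second. The replete cells (Control) were taken at 0 h from logarithmic cultures under the same 75 µmol photons. Each condition comprised 2 biological replicates with 4 technical replicates each, so that 16 of the 32 libraries of the series entered the comparison. No replete culture was sampled at 72 h, so the lack of N, the time and the transfer to new medium cannot be told apart.

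Nitrogen is needed for amino acids, nucleotides and chlorophyll, and green algae deprived of it cease to divide, dismantle much of the chloroplast and store carbon as triacylglycerol in lipid droplets. L. incisa is known for triacylglycerol that is rich in arachidonic acid, a long-chain polyunsaturated fatty acid. RNA sequencing gives each gene as a share of all transcripts in the sample, here called the transcript pool and measured as TPM, which is FPKM rescaled to the same sum in every sample. Genes that leave the pool therefore enlarge the share of those that stay, and an amount of RNA per cell is not measured. A lower level in bulk RNA also does not distinguish fewer cells that carry a transcript from fewer copies per cell.

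Values were deposited as 1 pooled number per gene and condition, so no comparison below has a replicate check and none was tested. How much each of the 2 cultures contributed to a pooled value is not known, so a value may reflect mainly 1 culture. A gene is said to have changed, increased or decreased where its pooled values differed at least 2-fold, with no test implied. The pooled expected counts came to 329774484 fragments at 72 h without N and 148630272 in replete cells. With this depth the 95% intervals that RSEM attached to each FPKM were narrow, with a median half-width of 2.12% of the value at 72 h and 3.11% in replete cells. These intervals cover counting and read assignment only. They lay apart for 90.5% of the 13789 genes, with 5899 higher and 6584 lower at 72 h, and 9173 of these genes were within 2-fold. Of all genes past 2-fold, 1 had intervals that overlapped. Counting error was thus small beside the differences described here, whereas the spread between cultures could not be assessed.

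Most genes kept their level within 2-fold, and in FPKM the changes beyond it were uneven, with more and far deeper decreases than increases. Of the 13789 genes, 10478 (76.0%) stayed within 2-fold on the log2(FPKM + 1) scale, and 7786 (56.5%) stayed within 1.5-fold. The genes at least 2-fold higher at 72 h numbered 1369 (9.93%) and those at least 2-fold lower 1942 (14.1%). The median log2 ratio was close to 0, at -0.04. The middle 50% of genes lay between -0.57 and 0.43, and the standard deviation over genes was 1.2. At the threshold, the nearest genes still within 2-fold had log2 ratios of 0.9995 and -0.9995, so the counts do not rest on a gap in the distribution.

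In FPKM, the asymmetry grew with the size of the change. At least 4-fold differences were found for 395 genes (2.86%) that were higher at 72 h and for 667 (4.84%) that were lower. At 16-fold there were 46 higher and 144 lower genes, and at 64-fold 6 higher and 55 lower genes. The number of lower genes per higher gene thus went up from 1.42 at 2-fold to 1.69 at 4-fold, 3.13 at 16-fold and 9.17 at 64-fold. The first percentile of the log2 ratio was -4.07 and the 99th was 2.98, and the skewness was -1.31. The extremes were -11.47 and 7.94. A pseudocount of 1 FPKM holds back the ratios of genes with low levels in either direction, and a decrease of 64-fold can be seen only in genes that were abundant in replete cells.

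**Figure D1:**
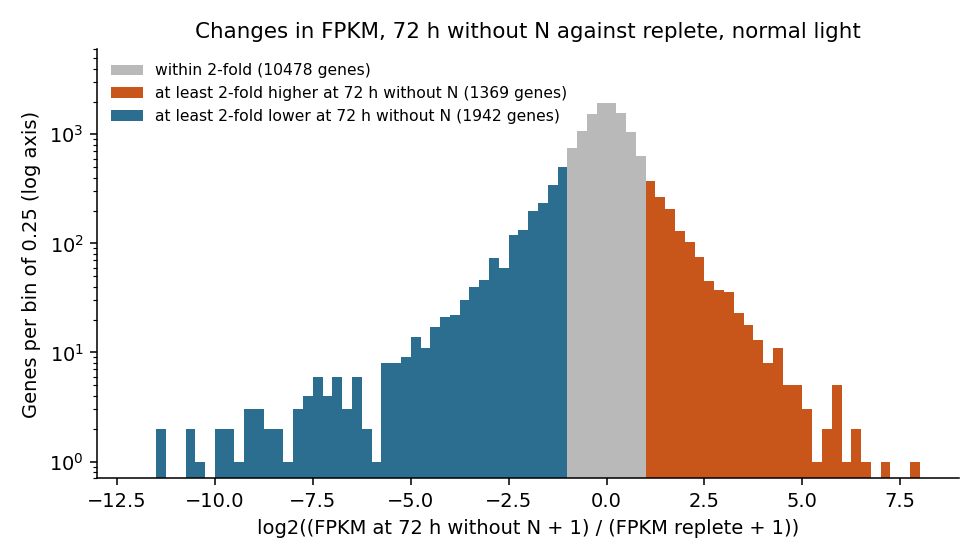
Histogram of the log2 ratio of FPKM + 1 at 72 h without N over replete cells for 13789 genes, in bins of 0.25, with the number of genes on a log axis and colors for genes past 2-fold in each direction. The left tail reaches -11.47 and holds 55 genes beyond 64-fold, whereas the right tail ends at 7.94 with 6 such genes.

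The direction of the balance at 2-fold depended on the unit. FPKM and TPM of the same sample differ by a constant factor, and this factor was not the same in both conditions, since FPKM summed to 552137 at 72 h and to 670399 in replete cells. On the TPM scale the median log2 ratio was 0.22, that is 0.26 above the value for FPKM, and 2157 genes were at least 2-fold higher against 1602 lower. The share of higher genes among those past 2-fold was 57.4% with TPM and 41.3% with FPKM. With the median of all genes taken off the TPM ratios, 1565 genes were higher and 2041 lower. At 16-fold, decreases outnumbered increases on every scale tried. With TPM, 577 genes were at least 4-fold higher and 607 lower, and 70 were at least 16-fold higher and 142 lower. Ratios below are given in FPKM, and shares of the pool in TPM.

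The unequal sums of FPKM correspond to a longer average transcript after N deprivation. Weighted by TPM, the mean transcript length of the pool was 1811 bases at 72 h without N and 1492 bases in replete cells. Genes with 500 to 1000 bases held 21.3% of the pool at 72 h and 29.2% in replete cells, and genes under 500 bases held 3.14% at 72 h and 5.01% in replete cells. Genes with 2000 to 4000 bases held 30.7% at 72 h against 19.1% in replete cells. The share of genes at least 2-fold lower went down with length, from 17.8% of the genes with 500 to 1000 bases to 8.07% of those with 4000 bases or more, while the 199 genes under 500 bases had 13.1%. Within genes of 10 to 100 FPKM (mean of both conditions) the corresponding shares were 14.4% and 7.75%. Over all members, the share of genes at least 2-fold higher was 14.6% under 500 bases and between 8.68% and 11.2% in the longer classes. Within genes of 10 to 100 FPKM this share went up from 7.55% at 500 to 1000 bases to 15.0% at 4000 bases or more. The 71 genes under 500 bases at that level had 18.3%. In the deposited tables the effective length equals the full length in every row. Levels of short genes therefore carry no correction for fragment size, in either condition, and the part of this in the length pattern was not tested.

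The genes of the deep tail had high levels in replete cells, which a 64-fold decrease with 1 FPKM added requires. All 55 genes that were at least 64-fold lower at 72 h had 105.6 FPKM or more in replete cells. Their FPKM at 72 h was between 0.01 and 21.8 with a median of 1.70, against a range of 105.6 to 9135 with a median of 1315 in replete cells. These genes were chosen by the ratio of the same values, so the distance between the ranges follows from the choice. These 55 genes made up 0.0407% of the transcript pool at 72 h without N and 12.0% of the pool in replete cells. None was listed at 0 counts in either condition. The genes that were at least 16-fold higher had come from low levels. The 46 genes of this group had a median of 137.9 FPKM at 72 h (24.2 to 2246) and of 2.52 FPKM in replete cells (0.04 to 61.5). They accounted for 2.98% of the pool at 72 h and 0.0674% of it in replete cells. Both groups were chosen by these same values and cut at different folds, so their pool shares are a description and not a like comparison.

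Levels of the same genes in the other N-deprived samples are given as a description, because the genes were chosen by their values at 72 h under normal light and in replete cells. The 55 genes of the deep tail had a median of 13.2 FPKM at 12 h without N under high light (Nst12hHL, 150 µmol photons) and of 1.74 FPKM after 72 h in the same light (Nst72hHL). Their share of the pool was 12.0% in Control, 0.320% in Nst12hHL, 0.0407% in Nst72hNL and 0.0408% in Nst72hHL. The 46 genes with the steepest increases had medians of 24.4 FPKM in Nst12hHL and 119 FPKM in Nst72hHL. Their pool share was 0.0674% in Control, 0.397% in Nst12hHL, 2.98% in Nst72hNL and 2.42% in Nst72hHL.

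**Figure D2:**
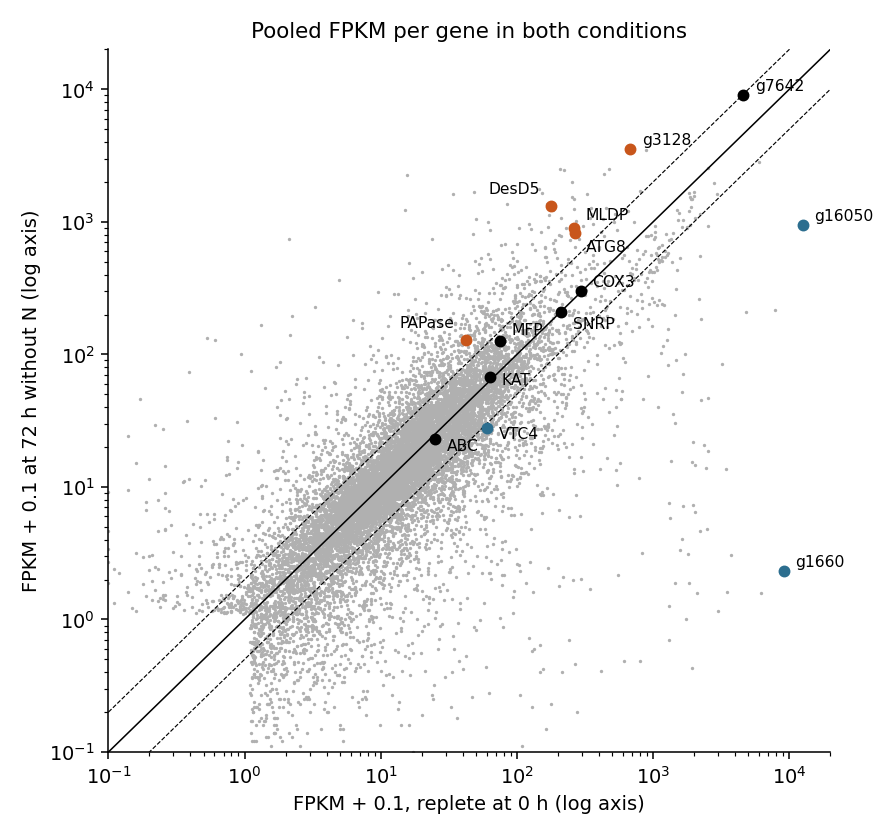
FPKM + 0.1 of each of the 13789 genes at 72 h without N (y axis) and in replete cells (x axis), both on log axes, with the line of equality and dashed lines at 2-fold on the plotted scale. Named genes are marked in orange (at least 2-fold higher at 72 h with 1 FPKM added), blue (at least 2-fold lower) or black (within 2-fold). Genes below the diagonal reach from 9135 FPKM in replete cells down to 2.22 FPKM at 72 h (g1660), and no gene lies as far above it.

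Changes were most frequent among abundant genes. Genes were sorted by the mean FPKM of both conditions. This mean follows the higher value, so a large change in either direction lifts a gene into a higher class. Sorted by the level at 72 h alone, 51.2% of genes with 100 to 1000 FPKM and 19.2% with 10 to 100 FPKM changed. Sorted by the level in replete cells alone, these shares were 51.2% and 22.3%. Of the 905 genes with 100 to 1000 FPKM, 55.5% changed at least 2-fold, against 22.4% of the 7420 genes with 10 to 100 FPKM and 20.5% of the 5124 genes with 1 to 10 FPKM. In the class of 100 to 1000 FPKM nearly as many genes were higher as lower, with 265 (29.3%) higher and 237 (26.2%) lower at 72 h. In that class the standard deviation of the log2 ratio was 2.34, against 0.88 in the class of 1 to 10 FPKM. In the class of 1000 FPKM and over, 9 of 61 genes were higher and 26 lower. Its median log2 ratio was -0.91, and 23 genes were at least 4-fold lower. The direction in this class depended on the sorting. Sorted by the level at 72 h, 33 of 54 genes were higher and 1 was lower. Sorted by the level in replete cells, none of 111 genes was higher and 76 were lower. Among genes of 1 to 10 FPKM 336 (6.56%) were higher and 715 (14.0%) lower. The pseudocount compresses the ratios of that class, so its shares are not directly comparable with those of abundant genes.

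**Figure D3:**
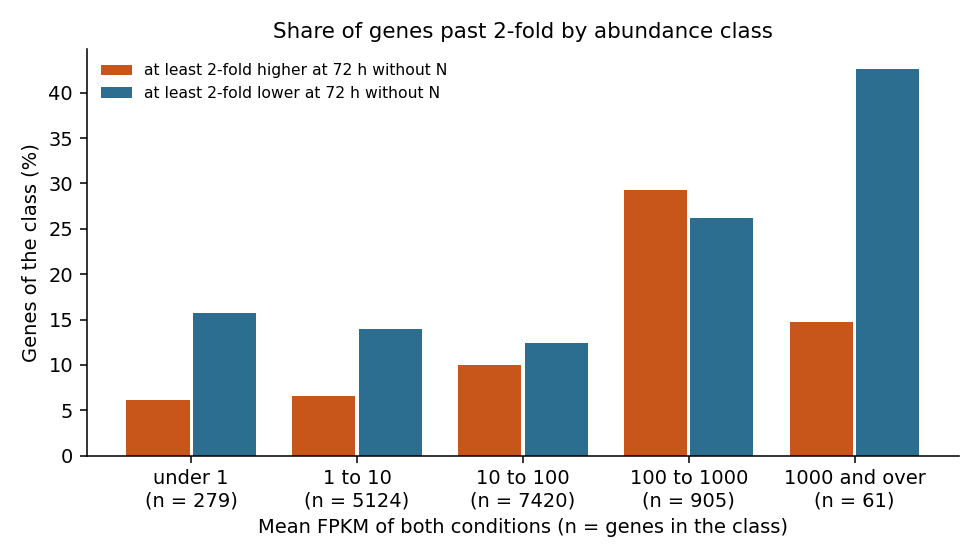
Percentage of genes at least 2-fold higher (orange) and at least 2-fold lower (blue) at 72 h without N in classes of the mean FPKM of both conditions, with the number of genes in each class below the bars. The class of 100 to 1000 FPKM has bars of 29.3% and 26.2%, and the class of 1000 FPKM and over bars of 14.8% and 42.6%.

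The upper end of the abundance scale was exchanged to a large extent. There were 54 genes at or above 1000 FPKM at 72 h without N and 111 in replete cells, and 19 genes were in both sets, which is 35.2% of the 72 h set and 17.1% of the replete set. Of the 111 abundant genes of replete cells, 52 were found between 100 and 1000 FPKM at 72 h, 18 between 10 and 100, 19 between 1 and 10, and 3 under 1 FPKM. These 111 genes made up 11.7% of the pool at 72 h and 33.8% in replete cells, and their median length was 812 bases. Of the 54 abundant genes at 72 h, 28 had been between 100 and 1000 FPKM in replete cells and 7 between 10 and 100. None had been under 10 FPKM. The 54 genes held 16.8% of the pool at 72 h against 8.20% in replete cells, with a median length of 1472.5 bases. Sets chosen by a high level in a single condition tend to be lower in the other one, so that these counts describe the exchange and do not test it.

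Across all classes, 10018 of the 13789 genes were in the same class of FPKM (limits at 1, 10, 100 and 1000) in both conditions. Another 1507 genes were 1 class higher at 72 h and 2069 were 1 class lower. Moves over 2 or more classes were made by 47 genes upward and by 148 genes downward. From 100 FPKM or more in replete cells, 67 genes were under 10 FPKM at 72 h, where their median was 1.92 FPKM against 257 FPKM in replete cells. In the opposite direction, 16 genes had at least 100 FPKM at 72 h and under 10 FPKM in replete cells, with medians of 162.7 FPKM at 72 h and 4.02 FPKM in replete cells.

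Few abundant genes crossed the limit of 1 FPKM. At 72 h 273 genes had at least 1 FPKM and were under it in replete cells, and 715 genes had at least 1 FPKM in replete cells alone. Most were weakly expressed where they were present, with a median of 2.00 FPKM for the 273 genes and of 2.20 FPKM for the 715 genes. Among the 273 genes 27 reached 10 FPKM at 72 h and 3 reached 100 FPKM, whereas among the 715 genes 84 reached 10 FPKM in replete cells and 21 reached 100 FPKM. The highest values were 132.6 FPKM at 72 h and 1944 FPKM in replete cells. Of these genes, 4 of the 273 were listed at 0 counts in replete cells and 1 of the 715 at 0 counts at 72 h. All these genes entered the comparison through the condition in which they were higher. Over the 12801 genes with at least 1 FPKM in both conditions, 1226 were at least 2-fold higher and 1531 lower at 72 h.

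The transcript pool of N-deprived cells was spread over more genes than that of replete cells. The 100 most abundant genes of each condition held 23.7% of the pool at 72 h and 32.1% in replete cells, and the 10 most abundant held 6.06% at 72 h and 9.21% in replete cells. To reach 50% of the pool 615 genes were needed at 72 h and 333 in replete cells. At 90% of the pool the numbers were 5750 genes at 72 h and 5396 in replete cells. In expected counts, which are not scaled by length, the order of both conditions was reversed. The 100 genes with the most fragments then held 23.48% at 72 h (95% Wilson interval 23.48 to 23.49%) and 22.02% in replete cells (22.01 to 22.02%), intervals that cover counting error only. The greater concentration of the replete pool therefore holds for transcripts and not for fragments.

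**Figure D4:**
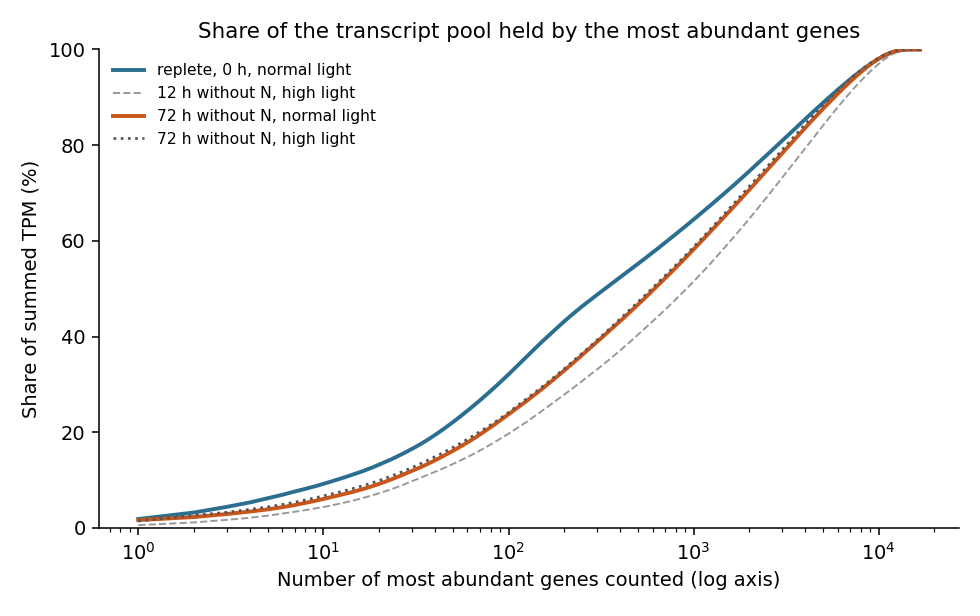
Cumulative share of summed TPM (y axis) held by the most abundant genes of each condition, ranked within that condition (x axis, log scale), for 4 pooled conditions. At 100 genes the 72 h culture under normal light (orange) stands at 23.7% and the replete culture (blue) at 32.1%.

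Membership in the most abundant set changed along with its size. Only 2 genes were among the 10 most abundant in both conditions, and 29 were among the 100 most abundant in both. Of the 100 most abundant genes of replete cells, 71 were at least 2-fold lower at 72 h and none was at least 2-fold higher, and their share was 10.5% of the pool at 72 h against 32.1% in replete cells. Of the 100 most abundant genes at 72 h, 58 were at least 2-fold higher than in replete cells and 3 were lower, and their share was 23.7% of the pool at 72 h against 14.3% in replete cells. Over all genes 9.93% were higher and 14.1% lower, but each set was chosen by its high level in a single condition, which tilts its counts, so these are a description only. Among the 1000 most abundant genes, 579 were shared.

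Between both conditions 40.1% of the transcript pool changed hands, with 9614 genes gaining and 6543 losing share. These numbers are over all 16722 genes, including those under 1 FPKM in both conditions. The losses were more concentrated than the gains. Of all the share lost, 59 genes accounted for 50%, whereas 200 genes were needed for 50% of the share gained. The 10 largest losses added up to 8.30% of the pool and the 10 largest gains to 4.59%. The 1369 genes at least 2-fold higher held 33.4% of the pool at 72 h and 6.61% in replete cells. The 1942 genes at least 2-fold lower held 8.89% at 72 h and 44.3% in replete cells. The 10478 genes within 2-fold held 57.6% at 72 h and 49.0% in replete cells. Their median level was 12.6 FPKM in both conditions. The higher and lower groups were formed from these same values, so the direction of their shifts follows from the choice.

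**Figure D5:**
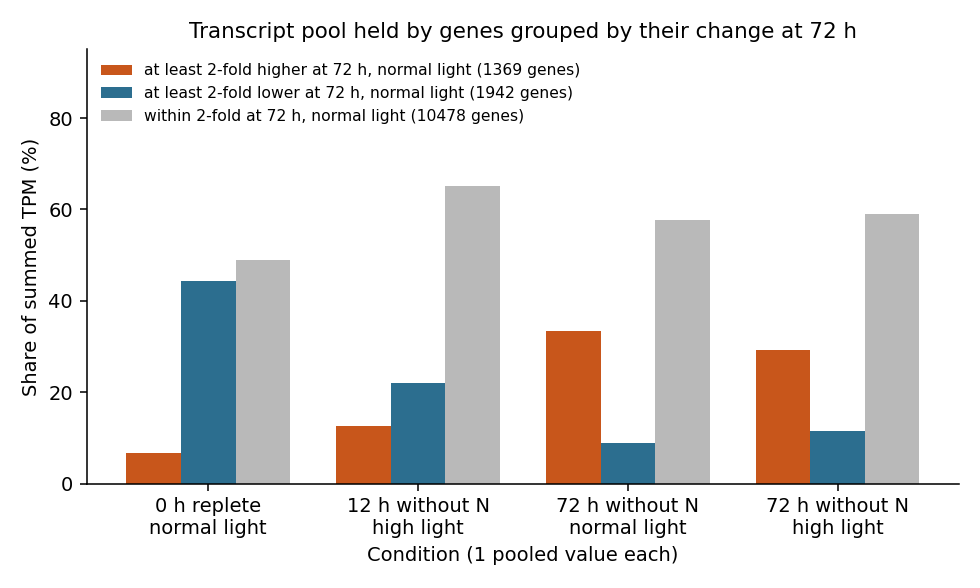
Share of summed TPM in each of the 4 pooled conditions for genes grouped by their change at 72 h under normal light against replete cells: at least 2-fold higher (orange, 1369 genes), at least 2-fold lower (blue, 1942 genes) and within 2-fold (gray, 10478 genes). The blue group stands at 44.3% in Control, 22.0% in Nst12hHL, 8.89% in Nst72hNL and 11.6% in Nst72hHL, while the orange group stands at 6.61%, 12.6%, 33.4% and 29.2% in the same order. The groups were formed from the Control and Nst72hNL values, so the direction of the shifts between those conditions follows from the choice.

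The tables carry gene numbers without product names, so the genes with the largest change in pool share can only be given by number. The gene g7642 had the largest gain. Its FPKM was 9054 (95% interval from RSEM 9041 to 9067) at 72 h and 4601.8 (4588 to 4615) in replete cells, and its share of the pool was 1.64% at 72 h, where it ranked 1, against 0.686% in replete cells, where it ranked 7. With a log2 ratio of 0.98 it was just within 2-fold in FPKM, and it was 2.39 times as high in TPM. The second largest gain was that of g3128, with 3552 FPKM (3546 to 3556) at 72 h and 681 FPKM (678 to 685) in replete cells. It ranked 2 at 72 h and 156 in replete cells, and its log2 ratio was 2.38. Of its 4 transcripts, g3128.t1 made up 48.9% of the gene's TPM at 72 h and 34.7% in replete cells, and g3128.t2 made up 29.1% at 72 h and 41.4% in replete cells.

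The 2 largest losses were those of the 2 most abundant genes of replete cells. The gene g16050 had 943 FPKM (938 to 948) at 72 h against 12534 FPKM (12507 to 12560) in replete cells, a log2 ratio of -3.73, and still ranked 59 at 72 h. It is a short gene of 485 bases, and it held 0.171% of the pool at 72 h against 1.87% in replete cells. Its level was 1495 FPKM in Nst12hHL and 6932 FPKM in Nst72hHL, so that both 72 h samples stood far apart for this gene. The gene g1660 had 2.22 FPKM (2.06 to 2.38) at 72 h and 9135 FPKM (9119 to 9149) in replete cells. It had the lowest log2 ratio of all genes, -11.47, and dropped to rank 12060 at 72 h, against rank 2 in replete cells. It had 67.97 FPKM in Nst12hHL and 1.85 FPKM in Nst72hHL. Both 72 h samples were thus at a similarly low level for g1660.

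The steepest ratios belonged to genes of very different abundance. Among the 9163 genes that reached 10 FPKM in either condition, the 10 largest decreases had log2 ratios between -11.47 and -9.37. These 10 genes were at 0.33 to 2.97 FPKM at 72 h and at 1315 to 9135 FPKM in replete cells. The 10 largest increases had log2 ratios between 5.80 and 7.94, with 73.8 to 2246 FPKM at 72 h and 0.29 to 15.5 FPKM in replete cells. Both sets were ranked by the ratio of these same values, so their levels follow in part from the ranking.

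The study pairs 10 gene numbers with names in its list for quantitative RT-PCR, which places some known functions within this distribution. Of these 10 genes, 4 were at least 2-fold higher, 1 was at least 2-fold lower and 5 were within 2-fold. This compares with 9.93% and 14.1% of all genes, but the list was chosen by the study with these data partly in view and is no independent sample. DesD5, the Δ5 desaturase of the last step in arachidonic acid synthesis, had the largest change of the list. It had 1316 FPKM (1314 to 1319) at 72 h against 179 FPKM (177 to 180) in replete cells, and only 154 of the 13789 genes had a log2 ratio as high as its 2.87. By abundance DesD5 ranked 30 at 72 h and 475 in replete cells.

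MLDP, the major protein of the lipid droplet surface, had 901 FPKM (899 to 904) at 72 h and 261 FPKM (259 to 263) in replete cells, with a log2 ratio of 1.78. ATG8, the ubiquitin-like protein of autophagosome membranes, had 827 FPKM (824 to 830) at 72 h against 265 FPKM (262 to 267) in replete cells, and a log2 ratio of 1.64. Both genes were at nearly the same level in replete cells and entered the 100 most abundant genes at 72 h, with ranks of 68 and 77. PAPase, a putative acid phosphatase that the study picked from its candidates by its transcript data, had 128 FPKM (127 to 129) at 72 h and 42.0 FPKM (41.3 to 42.7) in replete cells. The log2 ratios of MLDP, ATG8 and PAPase lay above those of 96.3%, 95.7% and 95.3% of all genes.

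VTC4, a putative subunit of the polyphosphate polymerase, was the gene of the list at least 2-fold lower, with 27.9 FPKM (27.6 to 28.2) at 72 h against 60.5 FPKM (59.8 to 61.1) in replete cells. Its log2 ratio was -1.09 in FPKM and -0.82 in TPM, so that in TPM it stayed within 2-fold. Among the genes of fatty acid β-oxidation, MFP (multifunctional protein) had 126.5 FPKM at 72 h and 75.0 FPKM in replete cells. The thiolase KAT had 67.6 FPKM at 72 h and 63.5 FPKM in replete cells, and the transporter ABC had 22.9 FPKM at 72 h and 25.0 FPKM in replete cells. MFP was within 2-fold in FPKM, with a log2 ratio of 0.75, and past it in TPM, with a ratio of 2.05. For ABC the ratio was 0.916 in FPKM and 1.11 in TPM, so that its direction turned with the scaling.

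The reference genes of the RT-PCR lay near the center of the distribution. SNRP, a small nuclear ribonucleoprotein, had 209.8 FPKM at 72 h and 210.8 FPKM in replete cells, and COX3, a subunit of cytochrome c oxidase, had 301 FPKM at 72 h and 295 FPKM in replete cells. Their ratios were 0.995 and 1.02 in FPKM and 1.21 and 1.24 in TPM. Both were closer to 1 in FPKM than in TPM, and the direction of SNRP turned with the unit. The study used them as references for their stable expression, so their ratios do not test either unit.

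Genes with several annotated transcripts were more often higher and less often lower at 72 h. Of the 11495 genes with 1 transcript, 1047 (9.11%) were at least 2-fold higher and 1740 (15.1%) lower. Of the 1610 genes with 2 transcripts, 211 (13.1%) were higher and 162 (10.1%) lower. Of the 684 genes with 3 or more transcripts, 111 (16.2%) were higher and 40 (5.85%) lower. These genes were also more abundant, with a median of 25.9 FPKM against 12.6 FPKM (mean of both conditions). Within the class of 10 to 100 FPKM the shares were 11.9% higher and 4.62% lower for 3 or more transcripts, against 9.37% higher and 13.8% lower for a single transcript. Genes with 2 transcripts in that class had 12.6% higher and 8.42% lower. The part of abundance in this pattern was not tested beyond that class, and the part of gene length was not tested.

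Genes with consecutive numbers tended to change in the same direction. Of the 1180 genes at least 2-fold higher whose next number was also among the members, 282 (23.9%) were followed by a gene that was higher too, whereas 9.74% of all such next genes were higher. For the 1721 genes at least 2-fold lower, 392 (22.8%) were followed by a lower gene, against 14.1% of all. At a distance of 100 numbers the shares were 10.2% and 14.0%. The correlation of log2 ratios between neighbors was weak, with a Pearson r of 0.17 over 12036 pairs of adjacent numbers and of 0.01 over 11358 pairs 100 numbers apart, which share both libraries and the scaling. The longest run comprised 8 consecutive numbers, all at least 2-fold higher, with 18.6 to 178.7 FPKM at 72 h and 5.62 to 78.9 FPKM in replete cells. The longest run of lower genes comprised 6 numbers. The tables give no positions, and whether adjacent numbers are neighbors on a chromosome or parts of a single gene was not tested.

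Set beside the other N-deprived samples, the changes in Nst72hNL resembled those in Nst72hHL in number and size, and decreases were fewer in Nst12hHL. All 3 comparisons share the replete libraries and are not independent, and both high-light samples differ from replete cells in light as well. The standard deviation of the log2 ratio over genes was 1.03 in Nst12hHL, 1.2 in Nst72hNL and 1.19 in Nst72hHL. In Nst72hHL, 1404 of 13827 genes (10.2%) were at least 2-fold higher and 1860 (13.5%) lower than in Control. In Nst12hHL, 2386 of 14043 genes (17%) were higher and 806 (5.74%) lower, on a median log2 ratio of 0.20 that moves these counts. Decreases beyond 64-fold were found for 27 genes in Nst12hHL, 55 in Nst72hNL and 56 in Nst72hHL. The skewness was negative in each, with -0.92 in Nst12hHL, -1.31 in Nst72hNL and -1.18 in Nst72hHL. The differences between these comparisons were not tested.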

How the data were processed

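RNA of 2 cultures per condition with 4 technical replicates each had been sequenced. Bowtie 1.0.0, RSEM 1.2.9 and DESeq, with CASAVA 1.8 and cutadapt 1.1, are listed in the processing notes of the submitters, and the version of the assembly was not given in the sources used here. Expected counts, TPM and FPKM were deposited as 1 pooled RSEM value per condition for genes and transcripts, with 95% bounds of FPKM and, for transcripts, the percent of the gene's TPM (as deposited). Their deposited tables of comparisons hold fold changes and p-values, which were not used. From these tables only the mean normalized counts (a signal scaled by the authors' size factors) served as an alternative. Lengths were used as deposited.

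Log2 ratios were computed with a pseudocount of 1 FPKM over genes with at least 1 FPKM in either condition. A call is a change of at least 2-fold. Edge values of the FPKM classes were 1, 10, 100 and 1000. No test was possible on pooled values. Genes named are the 10 genes of the study's RT-PCR list and the 2 largest gains and 2 largest losses of pool share. Members, lists and rules were chosen with earlier results of these data known. Alternatives were TPM, counts divided by their total, median-of-ratios scaling, mean normalized counts, pseudocounts of 0.1 and 10, other minimums and transcripts. The steps were tested on simulated counts. Calculations used Python 3.11.15, pandas 2.3.3, numpy 2.4.6, matplotlib 3.10.9 and scipy 1.17.1.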

Additional observations from a re-analysis of the deposited data

How the results depend on the processing

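No paired analysis was possible because replicate values were pooled into 1 number per condition in the deposited tables, and leaving out each replicate was not run for the same reason. The count of genes at least 2-fold higher, 1369 in FPKM, was 2157 with TPM and 750 with a pseudocount of 10 FPKM, and it stayed within 1.5 times of 1369 under the other 8 alternatives. The count of genes at least 2-fold lower, 1942, was 902 with a pseudocount of 10 and stayed within 1.5 times under the other 9. The cause was not tested, apart from the construction of the pseudocount, which shrinks low levels, and of TPM, which shifts all genes. The median log2 ratio of -0.04 was 0.22 with TPM, -0.0759 with median-of-ratios scaling, 0.0106 with the authors' mean normalized counts, -0.0211 with a pseudocount of 10, -0.0142 with no minimum, -0.0143 with at least 5 FPKM in either condition and -0.0133 with at least 1 FPKM in both. The share of genes past 2-fold among those with 100 to 1000 FPKM stayed between 53.5% and 57.3% under all 10 alternatives, against 55.5%. The difference in pool share of the most abundant genes (72 h minus replete) was -8.34 percentage points for 100 genes and 1.47 in expected counts, a reversal. It was -3.15 for 10 genes, -6.26 for 1000 genes, -8.76 for 100 transcripts and -8.36 without the most abundant gene of each condition. The skewness was between -1.74 and -1.09 under every alternative. Depth limited only the lowest genes: 3 counts in 1000 bases correspond to 0.0091 FPKM at 72 h and 0.0202 FPKM in replete cells.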
